A study of Mus musculus with 15 samples.

Results

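Lymphatic endothelial cells sorted from transplanted melanomas were compared with lymphatic endothelial cells sorted from lymph nodes that do not drain the tumor. The comparison takes 10 of the 15 RNA-sequencing libraries of the study, 5 labelled Tumor and 5 labelled as non-draining lymph node (NdLN), and covers the 13887 of 21839 genes that passed an expression filter. All mice were of strain C57bl/6 and 10 weeks of age, and all carried a melanoma line described as lymphangiogenic, so the NdLN mice were tumor-bearing too and no tumor-free group entered. The name of the line and the number of animals behind a library were not stated in the sources used here. Cells of both tissues were sorted as CD45neg, CD31+ and gp38+, that is, without the leukocyte protein of Ptprc and with the proteins of Pecam1 and Pdpn. The study's title concerns 25-hydroxycholesterol from lymphatic cells, and Ch25h encodes the enzyme that makes it.

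Lymphatic endothelium lines the vessels that return fluid and immune cells from tissues to the blood. In peripheral tissues and tumors these vessels begin as blind-ended capillaries that take up dendritic cells through the chemokine CCL21, whereas in lymph nodes the same lineage lines the sinuses, where it filters lymph, clears ligands and supports resident macrophages. A comparison of tumor with node therefore sets different vessel beds beside each other as well as different environments, and the 2 cannot be told apart in this design.

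Total counts ran from 31894931 to 37437282 in NdLN and from 23830337 to 34577494 in Tumor libraries. In edgeR's quasi-likelihood test 9230 genes were called at an adjusted p under 0.05, 66.5% of those tested. Of all genes tested, 4715 (34%) were called higher and 4515 (32.5%) lower in Tumor libraries. The libraries of the groups did not overlap for 7588 genes (54.6%). With so many genes called, the direction and size of a gene's difference say more than the call itself, and the counts of each gene list below are to be read against these shares. The median log2 fold change over all tested genes was 0.039. Libraries were scaled by TMM factors, which centre most genes near 0, so this median and the balance of higher and lower calls depend on that scaling.

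The sort was checked on the genes of its markers. Pdpn, which encodes gp38, was at 124 ± 20.7 CPM (library-scaled counts, from edgeR's cpm with TMM factors; mean ± SD, n = 5) in NdLN and 116 ± 46.4 in Tumor libraries and did not pass the test (log2 fold change -0.087 ± 0.26, adjusted p = 0.78). Pecam1, which encodes CD31, stood at 1549, 1678, 1473, 1659 and 1622 CPM in the NdLN libraries. In the Tumor libraries it stood at 133, 318, 340.4, 333 and 254 CPM. No Tumor library reached an NdLN library, and the log2 fold change was -2.53 ± 0.20 (SE, adjusted p = 3.12e-08). Ptprc was low in both, at 5.43 ± 3.77 and 1.68 ± 1.45 CPM, and did not pass (adjusted p = 0.115).

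Transcripts of pigment cells were abundant in every Tumor library. Melanocytes and melanoma cells make melanin in melanosomes with the enzymes of Tyr, Tyrp1 and Dct on fibrils built from the protein of Pmel, and the transcription factors of Mitf and Sox10 maintain the lineage. The promoter stretches of 6 pigment genes are shown because these genes mark that RNA and carry the same 7 letters, TCATGTG, known as the M-box that MITF binds in pigment genes. Each stretch is given 5′ to 3′ on the gene's own strand, from RefSeq windows of GRCm38.p6 that run from 250 bases before to 50 bases after a start site, and capitals mark the letters TCATGTG or their reverse complement.
Tyr (chr7:87493513-87493582, minus strand): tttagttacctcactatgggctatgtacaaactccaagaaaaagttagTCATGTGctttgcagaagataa
Tyrp1 (chr4:80834133-80834212, plus strand): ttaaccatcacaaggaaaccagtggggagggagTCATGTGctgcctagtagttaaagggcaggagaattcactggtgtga
Dct (chr14:118052357-118052426, minus strand): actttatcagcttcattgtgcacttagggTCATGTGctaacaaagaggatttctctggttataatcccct
Trpm1 (chr7:64153665-64153734, plus strand): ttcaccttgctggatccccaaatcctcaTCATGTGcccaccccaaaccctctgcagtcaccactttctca
Mc1r (chr8:123407002-123407081, plus strand): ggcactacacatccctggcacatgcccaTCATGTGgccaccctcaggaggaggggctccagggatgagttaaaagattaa
Slc24a5 (chr2:125068067-125068126, plus strand): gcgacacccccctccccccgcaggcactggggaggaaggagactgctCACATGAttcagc

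Of the 18 melanoma and pigment cell genes in the table, RefSeq windows matched 12, and 6 of these (50.0%) held TCATGTG on either strand, against 4.31% of all 27025 genes with windows and 2.65% of genes tested here. A match describes the letters and is no evidence of binding. The motif is known from pigment genes such as these, so its share describes the list and tests nothing.

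Pmel was the gene with the most counts in each of the 5 Tumor libraries, at 15067, 11841, 9507, 13497 and 15541 CPM. In the NdLN libraries it stood at 5.32, 7.36, 11.2, 6.12 and 3.13 CPM. Dct rose from 2.67 ± 1.77 to 7298 ± 1573 CPM, Tyrp1 from 2.00 ± 1.44 to 5318 ± 1142 CPM, and Gpnmb, a melanosome glycoprotein gene that macrophages also express, from 5.47 ± 1.39 to 6082 ± 1008 CPM. The log2 fold changes were 11.41 ± 0.89 for Dct, 11.37 ± 0.93 for Tyrp1 and 11.67 ± 0.53 for Oca2, a melanosome transporter gene, the highest of all genes with a mean of 50 CPM or more in the higher group. Sox10 (11.11 ± 0.70) and Pax3 (11.11 ± 0.57), transcription factors of neural crest cells, and Tspan10 (11.48 ± 0.56) were among the same 10 genes, with Hhatl, Rab17 and Col2a1. Mitf rose from 2.88 ± 0.505 to 124 ± 38.1 CPM, Tyr from 3.58 ± 1.38 to 279 ± 32.7 CPM and Mlana from 0.395 ± 0.453 to 749.7 ± 217 CPM. In all, 18 members were tested, of which 16 rose, 1 fell and 1 did not pass, with a median log2 fold change of 9.61. Kit, a receptor that melanocytes share with other cells, did not pass (14.6 ± 6.99 and 17.5 ± 7.61 CPM). Ednrb, an endothelin receptor gene that endothelium expresses too, fell from 475 ± 234 to 116 ± 62.7 CPM and made up most of the list's sum in NdLN libraries.

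The summed level of the list was 25803 to 42024 CPM in the Tumor libraries, 3.74% ± 0.609 of their counts (SD, n = 5), against 371 to 929.7 CPM in NdLN. These are 18 genes only, and the share of all RNA that came from pigment cells was not estimated. In bulk RNA, fewer cells of a type and less RNA per cell cannot be told apart, so every level below is a level in the sorted material. How far pigment cell RNA moved the other genes was not tested.

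Marker lists of further cell types were read the same way. For fibroblasts and reticular cells 14 members were tested, of which 9 rose, 2 fell and 3 did not pass, and the summed level spread from 1572 to 10736 CPM over the Tumor libraries against 1292 to 2407 CPM in NdLN, so the sums overlap. Col1a1 stood at 101, 1486, 991, 780.0 and 2478 CPM in the Tumor libraries, with Tumor 5 highest and Tumor 1 lowest. For macrophages and monocytes 12 members were tested, of which 11 rose and 1 did not pass, at low sums of 174 to 322 against 34.6 to 105 CPM. Cd68 was at 15.2 ± 3.82 CPM and C1qb, a complement gene of macrophages, at 27.1 ± 16.1 CPM in Tumor libraries, and Mrc1, a mannose receptor that sinus endothelium expresses as well, at 73.0 ± 19.9 against 40.6 ± 20.3 CPM. The call of Mrc1 (0.85 ± 0.31, adjusted p = 0.0246) ended with the replicate block (adjusted p = 0.0639) and in the fits without NdLN 1, NdLN 2, NdLN 3, Tumor 2 or Tumor 3, where the adjusted p ran from 0.0584 to 0.0749.

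Most lymphocyte markers were lower, at low levels. For T and NK cells 9 members were tested, of which 1 rose, 7 fell and 1 did not pass. Their sums overlapped, at 2.33 to 22.1 CPM in NdLN and 2.70 to 4.17 CPM in Tumor libraries. For B and plasma cells 7 members were tested, of which 5 fell and 2 did not pass. Their sums were 20.7 to 71.1 CPM in NdLN and 5.42 to 9.04 CPM in Tumor libraries. With the stricter filter 0 T and NK cell markers and 1 B and plasma cell marker were tested. Of the dendritic cell markers 1 rose, 3 fell and 3 did not pass of 7, of pericyte and smooth muscle markers 4 rose, 3 fell and 3 did not pass of 10, of erythroid and platelet markers 2 rose, 1 fell and 3 did not pass of 6, and the 1 tested marker of adipocytes and the 1 of neutrophils and mast cells did not pass. Of the pericyte markers 2 in place of 4 rose under RLE or upper quartile factors, with no filter, with the stricter filter and without NdLN 1, NdLN 3, Tumor 2, Tumor 3 or Tumor 5. Of the Schwann cell and nerve markers 6 rose and 1 fell of 7. Sox10, S100b and a further member of that list are in the pigment cell list as well. No keratinocyte or epithelial marker passed the expression filter, and their sum was at most 4.42 CPM in a Tumor library.

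**Figure D1:**
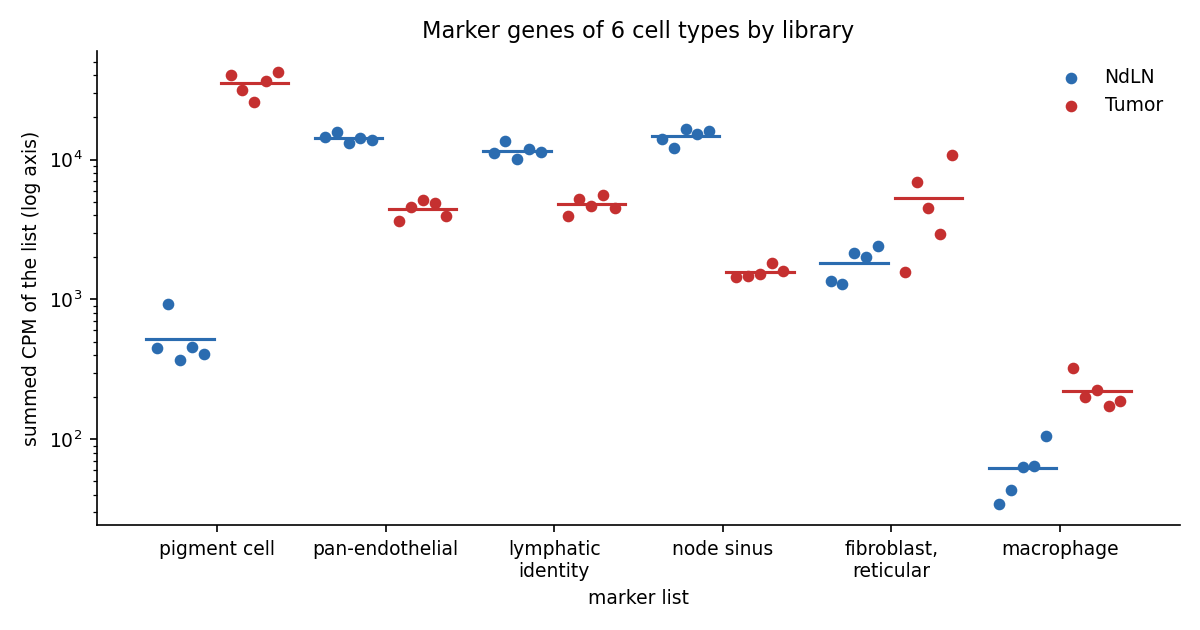
Summed CPM of the marker genes of 6 cell types in each of the 10 libraries (log axis), with NdLN libraries in blue and Tumor libraries in red, 1 point per library and a bar at the group mean. Pigment markers sit between 25803 and 42024 CPM in the Tumor libraries, while pan-endothelial and sinus markers sit lower there than in every NdLN library.

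Most of the genes listed as shared by endothelial cells (pan-endothelial) were lower, by unequal amounts. Of 20 pan-endothelial genes 1 rose and 19 fell, with a median log2 fold change of -1.81 and a range of -6.39 to 1.47. The junction genes Cdh5 (389 ± 28.9 to 182 ± 50.2 CPM) and Cldn5 (2636 ± 415 to 725 ± 137 CPM) fell, as did the receptor genes Tie1 (-1.76 ± 0.21) and Kdr (-2.89 ± 0.19), and Clec14a fell furthest, from 186 ± 9.71 to 2.20 ± 1.14 CPM. Egfl7, a secreted endothelial factor, fell least by log2 fold change among those with 1000 CPM or more in NdLN (-0.73 ± 0.10). Sox18 fell by less than the median (-0.62 ± 0.22, adjusted p = 0.0224), and its call ended without Tumor 1 (adjusted p = 0.0565) or without Tumor 5 (adjusted p = 0.0507). Cd34 was the one that rose, from 67.8 ± 16.8 to 188 ± 47.5 CPM, with Tumor 5 apart at 271 CPM. The part of other cell types in the Cd34 values was not tested. The list held 1.36% ± 0.0692 of the counts of NdLN and 0.475% ± 0.0812 of those of Tumor libraries (SD, n = 5).

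A second scale was therefore read beside the first, in which each library's counts were scaled to the summed counts of the pan-endothelial genes. It describes a gene's change against these genes and removes no RNA of other cells. On this scale the median of all tested genes was 1.75, a shift of 1.71. Of all tested genes 11776 (84.8%) were called, 10644 (76.6%) as higher and 1132 (8.15%) as lower. A gene that is lower on both scales fell by more than the summed pan-endothelial genes did. Those 20 genes did not fall alike, as 8 of them were higher and 7 lower on this scale. Values on it are called relative below. The scale raises all genes together, so the relative counts of a list are to be read against 76.6% higher and 8.15% lower over all tested genes.

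Genes of lymphatic identity mostly fell, and those that rose are also in the capillary list below. Of 16, 2 rose (Ccl21a and Reln), 10 fell and 4 did not pass, and on the relative scale 7 were higher and 5 lower. Lyve1, Flt4 and Pdpn, which did not pass, are in the capillary list as well. Prox1, the transcription factor that holds lymphatic fate, stood at 674, 809.9, 788, 785 and 772 CPM in NdLN and 73.5, 112, 132, 115 and 90.9 CPM in Tumor libraries. The groups did not overlap (log2 fold change -2.87 ± 0.15, adjusted p = 4.07e-10; relative -1.20 ± 0.13, adjusted p = 1.43e-07). Lyve1, the hyaluronan receptor of lymphatic capillaries, stood at 649.6, 822, 1088, 1017 and 1309.5 CPM in NdLN and 855, 947, 847, 1002 and 640.5 CPM in Tumor libraries, which overlap, and did not pass (-0.19 ± 0.18, adjusted p = 0.374). Relative to the pan-endothelial genes Lyve1 was higher (1.49 ± 0.20, adjusted p = 2.85e-06). Flt4, the receptor of VEGF-C, did not pass (-0.48 ± 0.26, adjusted p = 0.121) with all libraries and passed without Tumor 2 (-0.66 ± 0.27, adjusted p = 0.0467). Relative to the pan-endothelial genes it was higher (1.18 ± 0.22, adjusted p = 0.000118). Mmrn1 (-2.47 ± 0.17), Gata2 (-3.30 ± 0.21), Klhl4 (-3.34 ± 0.11) and Stab2 (-9.02 ± 0.35) fell, and the last, a hyaluronan-clearing receptor gene, went from 1381 ± 148 to 2.64 ± 1.14 CPM.

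Genes of lymphatic capillaries moved in both directions. Lyve1, Ccl21a, Reln, Pdpn and Flt4 are members of the identity list too, so the counts of these lists are not separate results. Of 10, 5 rose, 1 fell and 4 did not pass, beside 34% higher and 32.5% lower of all tested genes, and on the relative scale 9 were higher and 0 lower. Ccl21a, which encodes the chemokine that draws dendritic cells into lymphatics, stood at 83.2, 139, 107, 135 and 60.1 CPM in NdLN and 1502, 817, 843, 1406 and 1566 CPM in Tumor libraries (log2 fold change 3.55 ± 0.38, adjusted p = 8.67e-07). Every Tumor library lay above every NdLN library, though Ccl21a has near-identical copies between which short reads can be split. Ptx3, a soluble pattern recognition gene, rose from 9.36 ± 13.7 to 234 ± 162 CPM, and NdLN 2 stood apart at 33.2 CPM. Efemp1 (5.74 ± 0.71), Reln (1.35 ± 0.27) and Nrp2, a co-receptor for VEGF-C (0.85 ± 0.24), rose too. Itga9, an integrin subunit of valves and capillaries, did not pass and was higher in Tumor 2 (321 CPM) than in the other 4 Tumor libraries. Fabp4, a fatty acid carrier, was the member that fell (-2.06 ± 0.29). In the same Tumor libraries Efemp1 and Ptx3 rose alongside fibroblast markers, and the part of those cells in these values was not tested.

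Genes of node sinus endothelium were far lower in the tumor. Of 19, 2 rose, 15 fell and 2 did not pass, with a median log2 fold change of -4.87, and on the relative scale 3 were higher and 12 lower. Ackr4, a decoy receptor that clears CCL19 and CCL21 in the sinus ceiling, stood at 3371, 2457, 1933, 2276 and 2038 CPM in NdLN and 3.36, 1.78, 2.14, 1.01 and 0.956 CPM in Tumor libraries. Madcam1, an adhesion ligand of the sinus floor, went from 677 ± 175 to 1.69 ± 1.16 CPM, Itga2b from 1127 ± 354 to 5.12 ± 0.989 CPM, Marco, a scavenger receptor of medullary sinuses, from 526 ± 372 to 0.554 ± 0.698 CPM and Clec4g, a lectin, from 98.0 ± 29.3 to 0.0711 ± 0.0994 CPM. The Tumor value of Clec4g rests on 10 counts over all 5 libraries. Glycam1, which high endothelial venules of nodes also express, fell from 1454 ± 526 to 1.59 ± 1.69 CPM. Vcam1 (-6.60 ± 0.28), Csf1 (-4.87 ± 0.34) and Bmp2 (-5.26 ± 0.43) fell on both scales (relative -4.89 ± 0.30, -3.18 ± 0.34 and -3.56 ± 0.43). Kcnj8 and Mrc1 were the members that rose, and Ackr2, a scavenger of inflammatory chemokines, did not pass (264 ± 35.6 and 309.9 ± 34.2 CPM). Cd209b, a marker of node sinus cells, was low in both and did not pass (4.12 ± 2.46 and 1.26 ± 1.56 CPM, adjusted p = 0.0652), but was lower without Tumor 2 (adjusted p = 0.0043), which stood at 3.96 CPM.

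**Figure D2:**
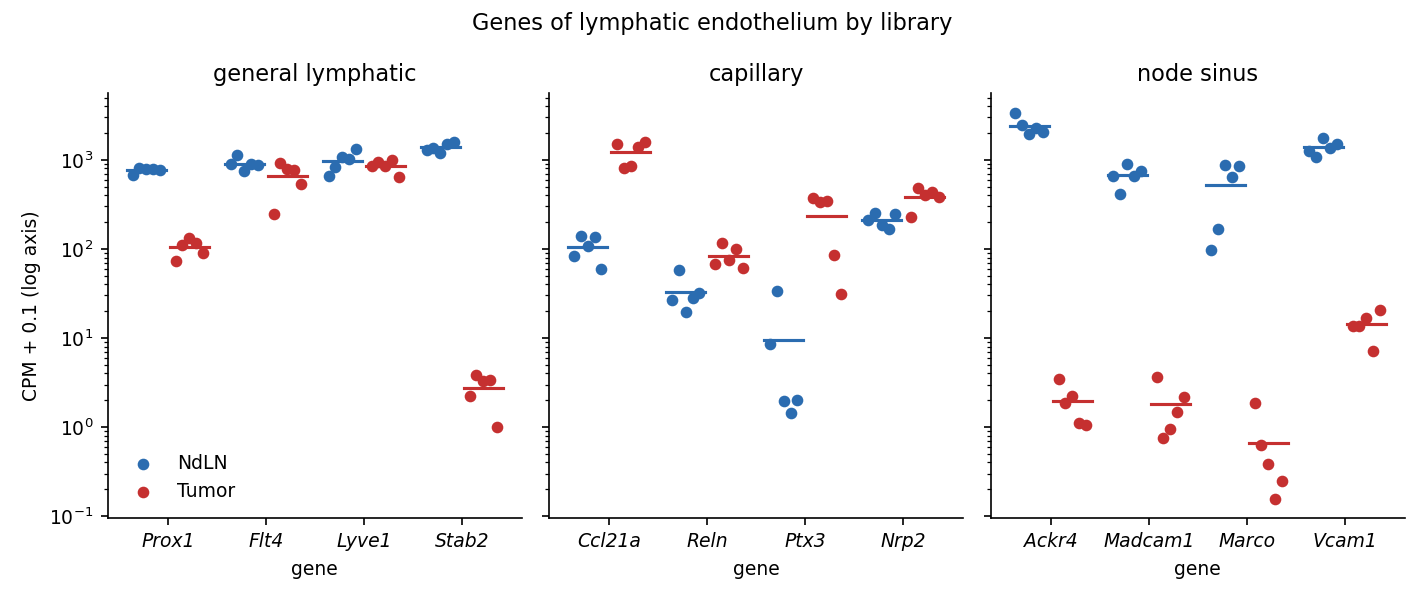
CPM of 12 genes of lymphatic endothelium in each library (log axis with 0.1 CPM added), NdLN libraries in blue and Tumor libraries in red, with the general lymphatic, capillary and node sinus genes in separate panels. Lyve1 overlaps between the groups, Ccl21a is higher in all 5 Tumor libraries, and Ackr4, Madcam1, Marco and Stab2 are lower in all 5.

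Of 11 collecting vessel and valve genes 8 fell and 3 did not pass (relative: 4 higher, 5 lower). The list's summed level overlapped between the groups, at 2469 to 3719.8 CPM in NdLN and 1259 to 2962 CPM in Tumor libraries. Foxc2, a transcription factor of valves, fell from 57.0 ± 82.5 to 5.14 ± 3.61 CPM (adjusted p = 0.0118). NdLN 2 stood apart at 199 CPM, and the call ended without it (adjusted p = 0.0676), with the replicate block (adjusted p = 0.0781) and under voom (adjusted p = 0.241). Cldn11, a claudin of valve cells, fell from 68.5 ± 5.41 to 0.121 ± 0.0995 CPM, and Gja4, a gap junction gene (-5.31 ± 0.40), fell too. Of 15 blood endothelium markers 3 rose, 7 fell and 5 did not pass (relative: 6 higher, 4 lower), and Plvap, which sinus and fenestrated endothelium share, fell from 2501 ± 1942 to 462 ± 246 CPM while Apln, a peptide of sprouting tip cells, rose from 1.85 ± 1.10 to 34.2 ± 17.8 CPM. Of 14 junction genes 11 fell and 3 did not pass (relative: 8 higher, 3 lower), with Jam3 lowest (-4.93 ± 0.20, relative -3.20 ± 0.26), though 2 junction genes were higher under voom. Of 8 caveolar genes 6 fell and 2 did not pass (relative: 4 higher, 1 lower), and of 10 genes of sphingosine-1-phosphate, the lipid that guides lymphocytes out of nodes, 2 rose, 6 fell and 2 did not pass (relative: 5 higher, 0 lower), with its receptor gene S1pr1 at 1090.0 ± 84.7 and 318 ± 60.5 CPM.

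Of 16 scavenger and lectin receptor genes 3 rose, 11 fell and 2 did not pass (relative: 5 higher, 8 lower), of 6 genes of atypical chemokine receptors 5 fell and 1 did not pass (relative: 1 higher, 4 lower), and of 17 cytokine and cytokine receptor genes of node stroma 12 fell and 5 did not pass. Csf1, the macrophage growth factor gene, stood at 1781, 1323, 2421, 2160.4 and 2307 CPM in NdLN and 29.5, 73.9, 73.9, 44.2 and 119.5 CPM in Tumor libraries. Il7 (-2.70 ± 0.17), the lymphocyte survival factor gene, Il33 (-3.71 ± 0.32), an alarmin, and Il6st (-4.12 ± 0.21), the shared receptor chain of the IL-6 family, fell, and Csf2rb2 went from 317 ± 97.9 to 0.355 ± 0.247 CPM. Ltb, which encodes a lymphotoxin chain, fell from 369 ± 81.9 to 8.35 ± 4.33 CPM, whereas its receptor gene Ltbr did not pass (150.2 ± 9.58 and 132 ± 19.0 CPM). On the relative scale 5 were higher and 10 lower of the 17. Some members of the lists in this paragraph, such as Clec4g and Ackr4, are in the sinus list too. These counts are therefore not separate from those of the sinus list.

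Of 13 complement genes 1 rose, 9 fell and 3 did not pass (relative: 3 higher, 6 lower), and their summed level went from 19988 ± 5010.1 to 1196 ± 435 CPM. Clu, a chaperone and complement inhibitor gene, fell from 10411 ± 2788 to 176 ± 36.4 CPM, Cfb, a factor of the alternative pathway, from 3739 ± 902 to 84.6 ± 32.5 CPM, C3 from 2093 ± 774 to 87.9 ± 71.4 CPM, and the inhibitor gene Cd55 fell as well (-6.82 ± 0.22). Clu and Cfb stayed lower on the relative scale (-4.16 ± 0.29 and -3.75 ± 0.31).

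Ch25h was higher in the tumor. It stood at 33.5, 33.5, 45.0, 40.3 and 28.6 CPM in NdLN and 76.0, 48.3, 80.5, 60.1 and 62.7 CPM in Tumor libraries, and no Tumor library fell into the NdLN range. The log2 fold change was 0.86 ± 0.16 (adjusted p = 0.000175) and 2.56 ± 0.20 relative to the pan-endothelial genes. An exact two-sided permutation test of log2 CPM gave p = 0.00794, the smallest that 5 against 5 libraries allow. ENSMUSG00000050370, the gene, is read from the minus strand of chromosome 19, between 34473778 and 34475164 (GRCm38). Macrophages and fibroblasts can express Ch25h too. Of the macrophage markers 11 of 12 were higher in Tumor libraries, at sums of 174 to 322 against 34.6 to 105 CPM, although the CD45neg sort is meant to remove such cells, and Ptprc stood at 1.68 ± 1.45 in Tumor and 5.43 ± 3.77 CPM in NdLN libraries. Fibroblast markers rose in 9 of 14, with the sums given above. Pigment cell RNA was present as well, with marker sums of 25803 to 42024 CPM in the Tumor libraries. The part of any of these 3 cell types in the Ch25h values was not tested.

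Of 10 genes of oxysterol synthesis and breakdown 5 rose, 4 fell and 1 did not pass. Cyp27a1, which makes 27-hydroxycholesterol, fell from 32.4 ± 11.4 to 1.17 ± 0.788 CPM, while Cyp7b1, which breaks 25-hydroxycholesterol down, was at 16.1 ± 3.35 and 8.36 ± 5.30 CPM (adjusted p = 0.0403), a call that ended in the fit of the 10 libraries alone (adjusted p = 0.0732) and without NdLN 3, NdLN 4, NdLN 5, Tumor 1 or Tumor 3, where the adjusted p ran from 0.0527 to 0.091. Hsd11b1 rose from 10.4 ± 1.83 to 125 ± 30.8 CPM, Soat1, which esterifies cholesterol, from 28.1 ± 3.02 to 115 ± 21.1 CPM, and Gpr183, the receptor of a dihydroxylated oxysterol, from 1.75 ± 0.859 to 11.5 ± 5.31 CPM.

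Genes of cholesterol synthesis and uptake rose: of 25, 22 rose and 3 did not pass, with a median log2 fold change of 1.97. Sqle, squalene epoxidase, stood at 29.1, 12.1, 33.4, 19.7 and 39.9 CPM in NdLN and 330.3, 365, 320.0, 386 and 376 CPM in Tumor libraries. Fdps (3.31 ± 0.24), Lss (3.06 ± 0.19) and Insig1 (2.71 ± 0.26), a feedback regulator of the pathway, rose. Srebf2, the transcription factor of the pathway, rose (0.86 ± 0.15). 25-hydroxycholesterol is known to restrain this pathway in cells. In the Tumor libraries both Ch25h and these genes were higher, in material that also held pigment cell RNA.

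LXR receptors, which oxysterols activate, and their targets were mixed: of 11, 3 rose, 7 fell and 1 did not pass (relative: 8 higher, 3 lower). Abca1, a cholesterol exporter gene, fell from 557 ± 75.0 to 32.3 ± 4.88 CPM, Mylip, a ubiquitin ligase gene, fell (-3.06 ± 0.16), as did Nr1h3, the receptor LXR-alpha (-2.15 ± 0.14), while the desaturase gene Scd2 rose from 310.0 ± 36.9 to 1852 ± 541 CPM. Of 12 genes of PPAR-gamma and fatty acid handling 2 rose, 6 fell and 4 did not pass (relative: 7 higher, 3 lower). Cd36, a fatty acid transporter of endothelium, stood at 2959, 4018, 2533, 4083 and 3037 CPM in NdLN and 14.7, 16.6, 20.004, 28.5 and 21.1 CPM in Tumor libraries, lower on the relative scale too (-5.67 ± 0.22), and Pparg itself went from 80.9 ± 17.8 to 9.43 ± 5.40 CPM. Fabp5 rose (2.81 ± 0.22).

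**Figure D3:**
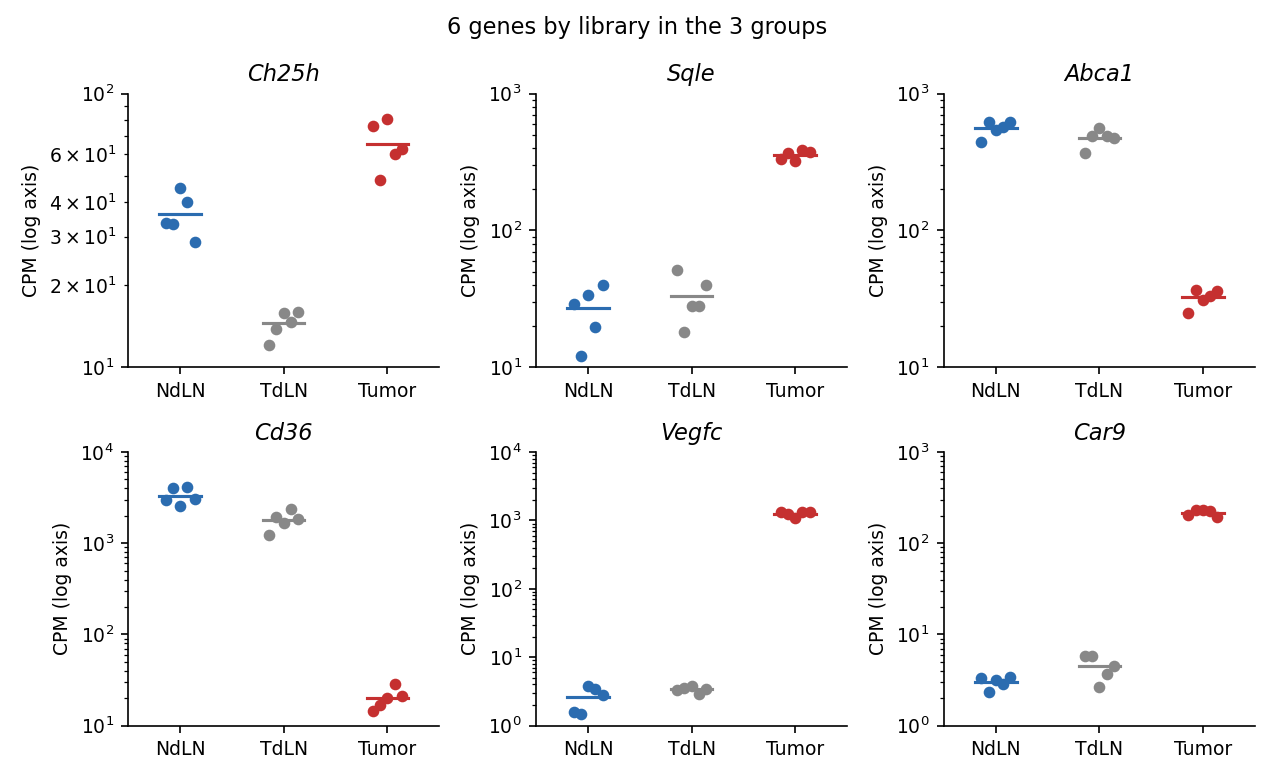
CPM of Ch25h, Sqle, Abca1, Cd36, Vegfc and Car9 in each library of the 3 groups (log axis), 1 point per library and a bar at the group mean. Ch25h is highest in Tumor, intermediate in NdLN and lowest in libraries of the tumor-draining node (TdLN), while Cd36 and Abca1 are lowest in Tumor.

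Of 18 genes of MHC class I presentation 12 fell and 6 did not pass, with a median log2 fold change of -1.22. H2-K1 stood at 6265, 5582, 7252, 6433 and 6212 CPM in NdLN and 1749, 969, 1081, 1551 and 2098 CPM in Tumor libraries, and B2m, the light chain of class I, went from 9713 ± 998 to 4188 ± 1409 CPM. The peptide transporter gene Tap1 did not pass (453 ± 66.0 and 365 ± 120.5 CPM, adjusted p = 0.146), but was lower without Tumor 5 (adjusted p = 0.00374) and under voom (adjusted p = 0.0349). On the relative scale 9 were higher and 2 lower of the 18, with a median of 0.51 beside 1.75 for all tested genes. Of 12 class II genes 7 rose, 2 fell and 3 did not pass (relative: 10 higher, 1 lower). H2-Aa rose from 30.2 ± 13.9 to 192 ± 161 CPM and Ciita, the class II transactivator gene, from 2.41 ± 1.04 to 15.7 ± 15.9 CPM, with Tumor 5 apart at 43.9 CPM. Cd74, the invariant chain of class II, did not pass (909 ± 303 and 743 ± 586 CPM, adjusted p = 0.54), but was lower without Tumor 5 (adjusted p = 0.0256). Macrophage markers rose in the same libraries, which were sorted as CD45neg and in which Ptprc did not rise, and their part in the class II values was not tested.

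Of 25 type I interferon response genes 2 rose, 13 fell and 10 did not pass (relative: 20 higher, 0 lower), with Irf7 (-1.13 ± 0.21) and Ifi44 (-1.49 ± 0.18) lower and Rsad2 (2.20 ± 0.35) higher. Of 21 interferon-gamma response genes 6 rose, 7 fell and 8 did not pass (relative: 15 higher, 1 lower). Cd274, which encodes PD-L1, fell from 143 ± 49.3 to 23.6 ± 8.33 CPM and Irf1, a transcription factor of the response, fell (-1.52 ± 0.24). Among 15 T-cell regulators 3 rose, 7 fell and 5 did not pass (relative: 7 higher, 4 lower), with Vsir (VISTA) from 891 ± 88.8 to 12.0 ± 2.79 CPM, Tnfsf10 (TRAIL) from 242 ± 46.6 to 14.6 ± 4.08 CPM, and Cd276 (B7-H3) and Lgals1 (galectin-1) higher, from 3.08 ± 1.49 to 168 ± 61.4 and from 192 ± 32.6 to 1071 ± 186 CPM.

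NF-kB feedback and adhesion genes fell in 14 of 16 and rose in 1 (relative: 3 higher, 10 lower). Nfkbia, the inhibitor that NF-kB induces, fell from 2201 ± 252 to 327 ± 36.7 CPM, Icam1, a leukocyte adhesion ligand, from 1052 ± 197 to 101 ± 18.9 CPM and Birc3, an inhibitor of apoptosis, fell (-4.45 ± 0.19). Of 17 chemokine genes 6 rose, 7 fell and 4 did not pass (relative: 8 higher, 4 lower). Besides Ccl21a, the T-cell chemokine gene Cxcl9 rose, from 30.2 ± 14.6 to 141 ± 82.9 CPM. Ccl20 fell from 78.6 ± 33.0 to 0.454 ± 0.508 CPM, Cxcl1, a neutrophil chemokine gene, from 276 ± 87.9 to 33.3 ± 10.9 CPM and Cxcl16 fell (-4.11 ± 0.19). Cxcl10 was at 335 ± 146 and 169 ± 72.1 CPM (-0.98 ± 0.33, adjusted p = 0.0158), a call that ended without NdLN 3 (adjusted p = 0.0524).

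Immediate early genes, which cells switch on within minutes of stimulation, including tissue digestion, were lower. Of 22, 20 fell and 2 did not pass, and on the relative scale 1 was higher and 16 lower. Fos stood at 9875, 11735, 11857, 10001 and 10365 CPM in NdLN and 1079, 762, 757, 853 and 983 CPM in Tumor libraries, Fosb went from 1195 ± 249 to 44.5 ± 15.4 CPM, Egr1 from 5085 ± 504 to 319 ± 42.6 CPM and Zfp36 fell (-4.08 ± 0.16). Klf2, which shear stress induces in endothelium, did not pass (-1.64 ± 0.95, adjusted p = 0.138), and NdLN 2 stood apart at 694 CPM. Of 14 heat shock genes 3 rose and 11 fell (relative: 8 higher, 3 lower), with the cytosolic co-chaperone gene Dnajb1 lower (-2.66 ± 0.18) and the mitochondrial chaperone gene Hspd1 higher (2.08 ± 0.15). Digestion times of the tissues were not stated, and their part was not tested.

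Genes of proliferation rose: of 31 cell cycle genes, 31 rose, and their median log2 fold change was 2.98. Cdk1, the mitotic kinase gene, stood at 16.0, 10.1, 12.8, 7.65 and 7.79 CPM in NdLN and 358, 206, 231, 241 and 227 CPM in Tumor libraries. Rrm2, which supplies deoxynucleotides, rose from 10.2 ± 3.29 to 426 ± 43.5 CPM, Plk1 by 4.32 ± 0.36 on the log2 scale, and Mki67, the Ki-67 proliferation marker, by 2.57 ± 0.41. Melanoma cells divide, and their part in these levels was not tested. Of 25 respiratory chain genes 24 rose and 1 did not pass, for example Atp5o (2.43 ± 0.15), and of 25 cytosolic ribosomal protein genes 22 rose, 1 fell and 2 did not pass, the one that fell being Rps3 (-1.17 ± 0.12). Ribosomal genes have many processed copies, so their counts are uncertain. Lysosome and v-ATPase genes split, 8 rose, 8 fell and 6 did not pass of 22, and of 15 genes of the oxidative stress regulator NRF2 6 rose, 4 fell and 5 did not pass.

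Genes of glycolysis rose, and genes of the hypoxia response split. HIF-1 binds hypoxia response elements with the core ACGTG upstream of genes of glucose uptake, glycolysis and acid handling. The stretches of 6 such genes with high fold changes are shown because their windows hold that core, in the same RefSeq source and orientation as above, and capitals mark ACGTG or its reverse complement.
Car9 (chr4:43506966-43507025, plus strand): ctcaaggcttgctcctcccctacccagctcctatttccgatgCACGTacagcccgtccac
Bnip3 (chr7:138909577-138909646, minus strand): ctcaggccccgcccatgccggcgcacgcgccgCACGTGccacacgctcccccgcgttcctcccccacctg
Slc16a3 (chr11:120949007-120949066, plus strand): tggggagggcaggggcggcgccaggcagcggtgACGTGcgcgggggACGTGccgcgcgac
Pgk1 (chrX:106186930-106186999, plus strand): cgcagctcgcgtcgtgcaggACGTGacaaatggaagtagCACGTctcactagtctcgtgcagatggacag
Ldha (chr7:46845724-46845803, plus strand): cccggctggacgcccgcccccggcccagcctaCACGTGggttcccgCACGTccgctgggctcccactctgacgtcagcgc
Hk2 (chr6:82774465-82774534, minus strand): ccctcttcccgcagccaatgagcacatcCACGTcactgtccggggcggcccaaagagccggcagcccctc

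ACGTG was in the windows of 15 of 19 matched hypoxia genes (78.9%) and 11 of 18 glycolysis genes (61.1%), against 21.8% of all genes with windows and 28.5% of genes tested here. The lists were partly drawn from known HIF-1 targets, so this describes them and tests nothing.

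Of 18 glycolysis genes 17 rose and 1 did not pass, with a median log2 fold change of 2.86. Tpi1 rose from 196 ± 11.4 to 2262 ± 325 CPM, Eno1 from 96.5 ± 4.62 to 1133 ± 105 CPM, Ldha, lactate dehydrogenase, from 388 ± 29.2 to 3165 ± 338 CPM, Slc16a3, the lactate exporter, from 8.08 ± 0.908 to 183 ± 78.3 CPM and Hk2, a hexokinase, from 1.00 ± 0.432 to 74.5 ± 17.9 CPM. Genes such as Eno1, Ldha and Pgk1 (3.92 ± 0.17) have processed copies, and reads can be split between them. Of 25 hypoxia response genes 12 rose, 6 fell and 7 did not pass. Car9, which handles acid in hypoxic cells, stood at 3.32, 2.35, 3.17, 2.83 and 3.41 CPM in NdLN and 203, 230.2, 230.0, 223 and 196 CPM in Tumor libraries. Bnip3, a mitophagy receptor gene, rose from 10.8 ± 1.15 to 104 ± 7.06 CPM and Hif1a from 131 ± 21.6 to 332 ± 53.1 CPM, whereas Epas1, the HIF-2 subunit typical of endothelium, fell from 139 ± 14.9 to 7.24 ± 2.78 CPM. Vegfa, a target of both, did not pass (75.3 ± 14.1 and 53.1 ± 18.1 CPM).

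**Figure D4:**
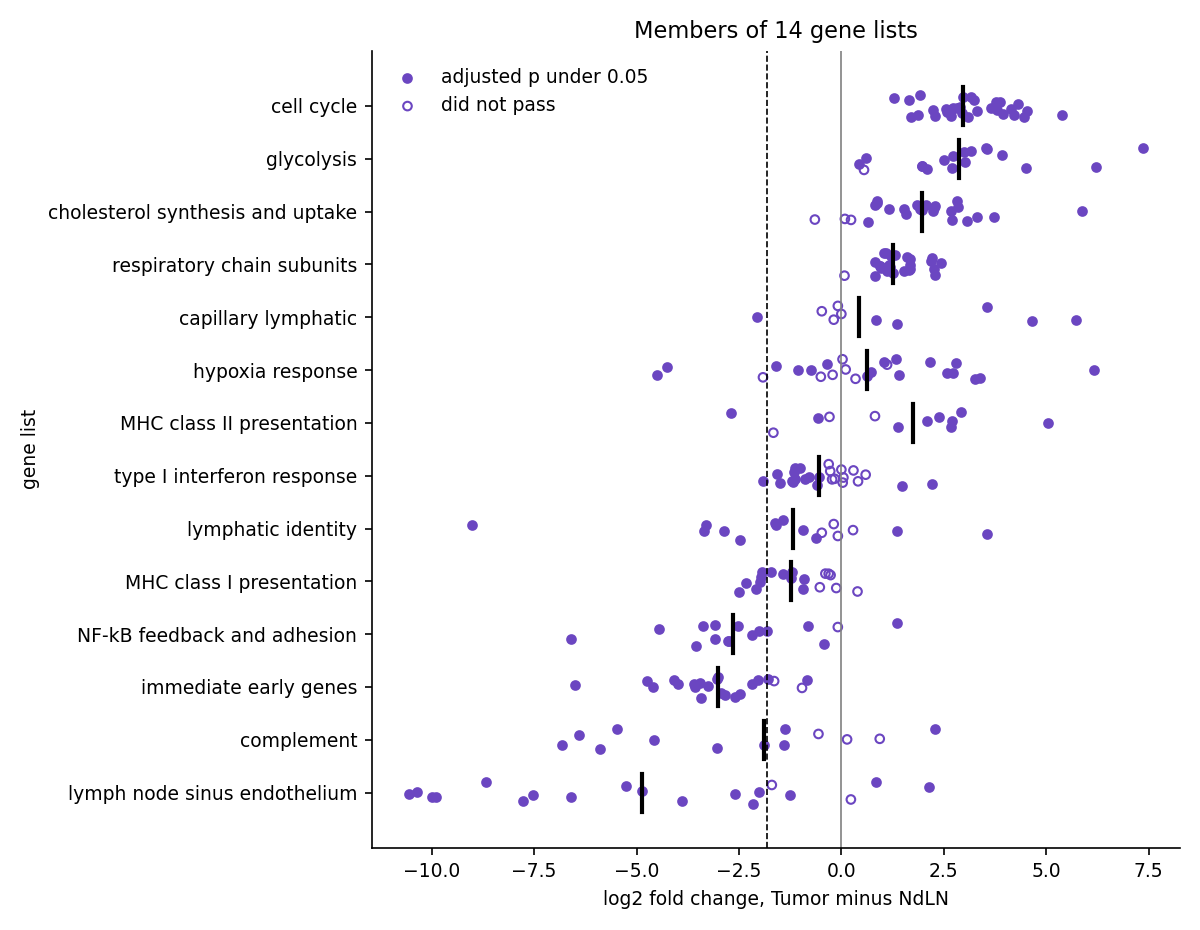
Log2 fold change of each tested member of 14 gene lists, Tumor minus NdLN, 1 point per gene with a black bar at the list's median, a grey line at 0 and a dashed line at the median of the pan-endothelial list (-1.81). Filled points passed the test. Cell cycle, glycolysis and cholesterol synthesis genes lie mostly to the right of 0, and most immediate early, complement and sinus genes to the left of the dashed line.

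Among growth factors of lymphatic vessels Vegfc, the main ligand of the receptor encoded by Flt4, rose most, from 1.56, 1.48, 3.76, 3.48 and 2.82 CPM in the NdLN libraries to 1317, 1251, 1089, 1310.0 and 1344 CPM in the Tumor libraries (log2 fold change 8.91 ± 0.28). Pgf rose from 2.98 ± 0.393 to 212 ± 37.4 CPM and Vegfd from 0.536 ± 0.296 to 16.5 ± 11.1 CPM. The line was described as lymphangiogenic, and which cells held Vegfc was not tested. Of the 14 genes of the VEGF list 6 rose, 3 fell and 5 did not pass. In that list 5 fell without Tumor 2, and the list's median went from 0.81 to -0.51 under the stricter filter. Of 15 angiopoietin, Tie and Notch genes 4 rose, 9 fell and 2 did not pass (relative: 6 higher, 3 lower). Angpt2, which loosens Tie2 signalling and supports lymphatic growth, rose from 202 ± 31.7 to 498 ± 137 CPM, while Tek, the gene of Tie2, fell from 399 ± 61.8 to 68.0 ± 16.7 CPM.

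Genes of the extracellular matrix moved in both directions. Of 20 collagen genes 11 rose, 5 fell and 4 did not pass (relative: 15 higher, 3 lower), with the fibrillar Col3a1 from 50.8 ± 24.3 to 2114 ± 1557 CPM and Col1a2 from 34.4 ± 17.4 to 1147 ± 815 CPM. Both are also in the fibroblast list, whose sum spread widely over the Tumor libraries. The summed level of the collagen list was 1796 CPM in Tumor 1, below every NdLN library (2396 to 2908 CPM), and 5175 to 12638 CPM in the other 4 Tumor libraries. The basement membrane collagen genes Col4a2 (469 ± 61.3 and 468 ± 170.5 CPM) and Col18a1 (642 ± 116 and 660.3 ± 274 CPM) did not pass. Of 14 laminin and basement membrane genes 2 rose, 10 fell and 2 did not pass (relative: 6 higher, 4 lower), with Lamb3, a laminin chain gene, from 100.2 ± 26.1 to 0.207 ± 0.139 CPM. Of 18 protease and inhibitor genes 7 rose, 9 fell and 2 did not pass (relative: 12 higher, 2 lower): Mmp2 rose from 3.50 ± 2.34 to 154 ± 57.1 CPM and Mmp9, a gelatinase, fell from 1008 ± 344 to 6.85 ± 2.11 CPM. TGF-beta, BMP and CCN response genes fell in 14 of 20 and rose in 1 (relative: 8 higher, 7 lower), with the ligand gene Bmp4 from 74.6 ± 15.8 to 0.515 ± 0.280 CPM. Of 9 genes of the insulin-like growth factor axis 2 rose, 3 fell and 4 did not pass (relative: 5 higher, 2 lower), and of 15 semaphorin and plexin genes 4 rose, 5 fell and 6 did not pass (relative: 10 higher, 3 lower), with the guidance factor gene Sema3d lower (-3.60 ± 0.15).

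Outside these lists, the genes with a mean of 20 CPM or more in both groups that rose furthest included Gpx3, a secreted glutathione peroxidase (40.6 ± 20.8 to 977 ± 391 CPM), Ccnd2, a D-type cyclin (23.6 ± 8.43 to 471 ± 85.9 CPM), Oxct1, a ketone-using enzyme (57.4 ± 9.65 to 848 ± 154 CPM) and S100a1 (22.1 ± 3.45 to 292 ± 66.9 CPM). Those that fell furthest included Cyp1b1, an oxidase of steroids and fatty acids (2212 ± 607 to 21.9 ± 16.3 CPM), Tspan7, a tetraspanin (1390.3 ± 258 to 23.2 ± 4.54 CPM) and Cp, the copper carrier ceruloplasmin (1078 ± 137 to 24.6 ± 3.49 CPM), which were lower on the relative scale too (-4.97 ± 0.49, -4.23 ± 0.19 and -3.73 ± 0.18). Among all genes with 50 CPM or more in the higher group, the lowest log2 fold change belonged to Dsg2, a desmosomal cadherin (327 ± 99.1 to 0.202 ± 0.189 CPM), followed by Clec4g, Ackr4, Astn1 (86.8 ± 30.8 to 0.0820 ± 0.0683 CPM), Marco and Glycam1.

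Whether the choice of node matters was read from the same fit, since the difference between Tumor against NdLN and Tumor against TdLN is TdLN against NdLN, which called 484 of all tested genes (3.49%). The naming rule picks genes partly by their Tumor against NdLN values, which rest on the same NdLN libraries. Of the 301 genes that it selects, 36 differed between the nodes, a count not to be read against the 3.49%. Ch25h was one of them, at 14.5 ± 1.60 CPM in TdLN libraries (-1.32 ± 0.16, adjusted p = 0.00111), so its excess in the tumor was larger against the draining node (2.18 ± 0.16) than against the non-draining one. Cdk1 rose between the nodes as well (2.23 ± 0.39, adjusted p = 0.00619), and cell cycle genes were higher in TdLN in 23 of 31, beside 1.84% of all tested genes. Immediate early genes were lower in TdLN in 17 of 22, beside 1.64% of all tested genes. For Prox1 (-0.51 ± 0.14, adjusted p = 0.0625) and Ccl21a (0.37 ± 0.34, adjusted p = 0.633) no difference between the nodes passed.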

How the data were processed

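The authors deposited 1 table of raw counts per gene for 15 libraries, whole numbers with no normalization. Per the labels' protocols, 1 ng of RNA from sorted cells was amplified with a low-input kit that does not mark strand and read as single reads of 50 bases. CASAVA 1.8.2, STAR 2.4, featureCounts 1.4.6 and build GRCm38 are named per the submitters' processing notes, and the strand setting is not given in the sources used here, so reads of overlapping or antisense genes cannot be told apart. The reads were amplified and carry no molecular identifiers, so counts overstate the number of molecules sampled.

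Groups follow the labels. edgeR 4.0.16 (TMM, filterByExpr, robust glmQLFit and glmQLFTest, all 15 libraries in 1 fit, Benjamini-Hochberg adjustment) gave every log2 fold change, with SE from the F statistic. All adjusted p-values named in the text come from this test unless another tool is named. The labels do not state whether each library is a separate animal, so p-values measure the spread between libraries. Pairs of libraries of 1 group differed by more than counting noise (lowest mean chi-square per gene 27.3), and none was counted as a duplicate. Deviations of same-numbered libraries correlated at -0.22 to 0.36, within the -0.48 to 0.43 of the other pairs. With only 5 such pairs this cannot decide whether libraries were paired. The main fit has no block, and a block was run as an alternative. Alternatives were RLE and upper quartile factors, DESeq2 1.42.0, limma 3.58.1 voom, no filter, a filter of 10 CPM in 5 libraries, a fit of the 10 libraries, the replicate number as a block, glmTreat at a threshold of 1 on the log2 scale, and each library left out.

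The genes compared and the 54 gene lists were chosen with earlier results of these data known. Named genes are part of the 301 selected by a rule: the 10 highest and 10 lowest called log2 fold changes at a mean of 50 CPM in the higher group, the same at 20 CPM in both groups, 8 and 8 on the relative scale, the 5 members of each list with the lowest adjusted p, Ch25h, Pdpn, Pecam1, Ptprc and Prox1, and all members of the pan-endothelial, lymphatic identity, capillary, sinus and pigment lists. 29 further list members were named after their values were seen. Coordinates of genes are from GENCODE M21, and promoter windows are from RefSeq. Genes withheld from the text are not reported here, though they stay in the counts of the lists.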

Additional observations from a re-analysis of the deposited data

Results flagged for a closer look

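In 25 of 332 groups of 5 libraries (166 genes named in the text, in the NdLN and in the Tumor libraries), 1 library lay so far from the others that its gap took up more than 0.71 of the group's range, Dixon's 95% value for 5. Chance flags about 1 in 20 such groups. NdLN 1 stood apart for Col1a2 (4.43 CPM against 36.4 to 47.0) and Prox1 (674 CPM against 772 to 809.9). NdLN 2 stood apart for Ccnd2 (38.6 CPM against 18.7 to 21.2), Ednrb (886 CPM against 305 to 415), Fabp4 (2006 CPM against 891 to 1148), Fabp5 (26.5 CPM against 16.7 to 18.9), Foxc2 (199 CPM against 8.01 to 59.2), Klf2 (694 CPM against 72.1 to 145), Lss (7.56 CPM against 12.0 to 13.0) and Ptx3 (33.2 CPM against 1.34 to 8.51). NdLN 3 stood apart for Bnip3 (12.8 CPM against 10.0 to 10.8), Mlana (1.19 CPM against 0.0957 to 0.319) and Tyrp1 (4.50 CPM against 0.875 to 1.85). NdLN 4 stood apart for Ifi44 (362 CPM against 182 to 229.8). Tumor 1 stood apart for Cd276 (61.0 CPM against 174 to 211), Cdk1 (358 CPM against 206 to 241), Clec4g (0.246 CPM against 0 to 0.0525), Col18a1 (188 CPM against 684 to 865), Fdps (318 CPM against 213 to 237) and Marco (1.76 CPM against 0.0575 to 0.525). Tumor 2 stood apart for Cd209b (3.96 CPM against 0.0575 to 1.13) and Itga9 (321 CPM against 66.4 to 129.9). Tumor 5 stood apart for Cd34 (271 CPM against 151 to 178), Ciita (43.9 CPM against 5.09 to 10.9) and Tap1 (572 CPM against 256 to 337). NdLN 2 stood apart for 8 genes and Tumor 1 for 6. In Tumor 5 the flagged genes include Ciita and Tap1, which interferon induces. In Tumor 1 the summed fibroblast markers were the lowest of the Tumor libraries. Whether these measures move together was not tested.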

How the results depend on the processing

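The counts of genes higher or lower in Tumor libraries stayed within 1.5 times of the reported ones under every alternative except glmTreat against a log2 fold change of 1, which called 4189 genes, 2090 higher and 2099 lower. Relative to the pan-endothelial genes, the count of lower genes went from 1132 to 714 under the stricter filter, which tests fewer genes, and to 742 under glmTreat. With the replicate block 8995 genes were called (11615 on the relative scale), and Ch25h was higher by 0.85. Of the 5 NdLN libraries 2 correlated best with the Tumor library of their own number. Ch25h kept its direction and call under the 18 alternatives other than glmTreat, with a log2 fold change of 0.75 to 0.94. Single genes were not read under glmTreat, and the Ch25h change of 0.86 lies below its threshold of 1. Of the 301 genes the rule selects, 36 differed between the nodes, 56 under DESeq2 and 58 in a fit of the compared libraries alone, and 24 to 37 with a library left out.

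glmTreat is left out of the counts of single genes that follow, so calls that its threshold would end are not among them. Of the 287 called genes among these 301, 4 lost their call under at least 1 other alternative, and 0 called genes changed direction. Of the 151 called genes named in the text, 5 lost their call in the same way (Mrc1, Foxc2, Cyp7b1, Cxcl10 and Sox18). The rule favours called genes with large changes or low adjusted p-values, so these counts do not describe how stable other calls are. Directions turned for 4 genes that did not pass. Col18a1 went to -0.0018 under upper quartile factors. Under voom Col4a2 went to 0.039 and Pdpn to 0.12, and with no filter Col4a2 went to 0.010 and Itga9 to 0.017. With a library left out, log2 fold changes ran from -0.077 to 0.28 for Col18a1, -0.16 to 0.20 for Col4a2, -0.25 to 0.13 for Pdpn and -0.57 to 0.18 for Itga9. Among lists, the angiopoietin, Tie and Notch list had 2 genes higher in place of 4 under voom and 1 under the stricter filter, and the interferon-gamma list had 3 in place of 6 under the stricter filter. With a library left out 2 keratinocyte and epithelial genes passed the expression filter in most fits, and both were higher in Tumor libraries. The cause of these changes was not tested.

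Depth limits genes with few counts in a group, such as Clec4g in the Tumor libraries.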
